A study of Homo sapiens with 4 samples.

Results

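A set of 10 genes that mark ovarian carcinoma were followed in HeyA8-MDR, a human ovarian carcinoma line that is multidrug resistant. The genes, 10 of the 17687 gene symbols on the array, were chosen by name: the transcription factors PAX8, WT1, MECOM and SOX17, the cell surface and adhesion proteins MUC16, MSLN, FOLR1, EPCAM and CLDN3, and the secreted protein WFDC2. Earlier results of these data were known when the genes were chosen. Each had 1 feature on the Affymetrix Human Clariom S array, a 1-colour array that summarises several short probes into 1 log2 expression value per feature. Total RNA came from cells labelled miR204 (2 arrays) and from cells of the same line without that label (2 arrays, called control here). The design text names an inhibitor of miR-204-5p for the first group and a control microRNA inhibitor for the second, while the note on treatment gives the same miR-204-5p inhibitor for every array, so the grouping rests on the titles. Both groups were grown in RPMI medium with 15% serum, gentamicin and 300 ng/ml paclitaxel. All arrays are of 1 cell line, and the labels do not state that replicates came from separate cultures. The p-values therefore reflect the spread among 4 arrays, part or all of which may be technical.

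PAX8 and SOX17 are transcription factors of the Müllerian duct, the embryonic source of the oviduct and uterus, and are used with WT1 to recognise carcinomas of Müllerian type. MECOM, a zinc finger transcription factor also called EVI1, lies in a chromosome 3 region that is often amplified in ovarian carcinoma. MUC16 carries the CA125 epitope and WFDC2 is HE4, the serum markers used to follow the disease, and MSLN and FOLR1 are surface proteins targeted by antibody drugs. EPCAM and CLDN3 belong to the epithelial cell surface and are commonly low in carcinoma cells with a mesenchymal form.

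The inhibitor acts on a mature microRNA that pairs with messenger RNAs mainly through its seed, bases 2 to 8. The miR-204-5p sequence is shown because it is the target of the treatment, and that of miR-211-5p because it has the same seed. Both are from RefSeq on GRCh38.p14, with the seed in capitals.
hsa-miR-204-5p: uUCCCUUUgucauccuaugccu
hsa-miR-211-5p: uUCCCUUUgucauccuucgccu
The level of the microRNA was not measured on these arrays, and target sites in the 10 genes were not searched here.

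The promoter windows of 4 of the genes are shown because MECOM and WT1 had the largest differences between groups among the 10, and the windows of CLDN3, an epithelial marker, and WFDC2, the secreted one, hold a match to CACCTG. This hexamer is the E-box bound by ZEB and SNAI repressors of epithelial genes. Each window runs from 250 bases before to 50 bases after a RefSeq transcript start on GRCh38.p14. For MECOM (chr3:169663663-169663962, minus strand) and WT1 (chr11:32435490-32435789, minus strand), which have several starts, it is the most upstream of them, and capitals mark GGGCGG, the GC box, or its reverse complement. For CLDN3 (chr7:73770221-73770520, minus strand) and WFDC2 (chr20:45469503-45469802, plus strand) capitals mark CACCTG or its reverse complement.
MECOM: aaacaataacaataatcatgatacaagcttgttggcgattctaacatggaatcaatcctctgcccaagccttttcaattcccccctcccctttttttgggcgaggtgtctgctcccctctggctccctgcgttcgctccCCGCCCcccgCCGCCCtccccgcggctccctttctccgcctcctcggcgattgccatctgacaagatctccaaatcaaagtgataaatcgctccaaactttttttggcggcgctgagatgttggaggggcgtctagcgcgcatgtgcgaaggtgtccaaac
WT1: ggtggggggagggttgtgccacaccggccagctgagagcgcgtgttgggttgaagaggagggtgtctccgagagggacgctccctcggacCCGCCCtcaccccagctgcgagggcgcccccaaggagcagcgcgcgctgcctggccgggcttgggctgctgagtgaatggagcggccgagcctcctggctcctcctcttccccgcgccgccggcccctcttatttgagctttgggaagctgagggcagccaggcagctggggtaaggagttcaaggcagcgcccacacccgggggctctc
CLDN3: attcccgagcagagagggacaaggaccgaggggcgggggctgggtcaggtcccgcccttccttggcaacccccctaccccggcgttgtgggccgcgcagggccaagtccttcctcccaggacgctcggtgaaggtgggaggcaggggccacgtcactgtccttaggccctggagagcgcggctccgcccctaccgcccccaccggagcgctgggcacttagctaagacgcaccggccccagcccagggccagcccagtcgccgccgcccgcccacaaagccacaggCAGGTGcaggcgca
WFDC2: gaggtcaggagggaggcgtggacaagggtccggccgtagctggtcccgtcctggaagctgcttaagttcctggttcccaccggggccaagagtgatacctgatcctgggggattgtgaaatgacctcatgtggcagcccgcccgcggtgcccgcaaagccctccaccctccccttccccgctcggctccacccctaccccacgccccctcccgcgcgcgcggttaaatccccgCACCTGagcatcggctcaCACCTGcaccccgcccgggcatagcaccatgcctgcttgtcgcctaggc
Windows were found for 6 of the 10 genes, 12 windows in all, and were searched on both strands for 4 motifs. These were an E-box, CACCTG, a GC box, spelled GGGCGG, the CCAAT box, which is CCAAT itself, and TATAAA for the TATA box. The E-box matched in 4 of the 12 windows, which belong to CLDN3, MUC16 and WFDC2, against 20.6% of all 35116 promoter windows in the table. WFDC2 had 2 matches and CLDN3 1. GGGCGG matched in 7 of the 12 windows, against 45% of all windows, with 2 matches for the MECOM window shown, 1 for that of WT1 and 6 for CLDN3. CCAAT matched in 3 of the 12, against 34.6%, and TATAAA in 0 of the 12, against 11.5%. No matches of different motifs overlapped in these 12 windows. Windows of 1 gene can share promoter sequence, and a match is a description of letters, not of a bound factor.

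Array medians were 5.59 and 5.61 log2 units with the inhibitor and 5.65 and 5.68 in the controls. Pearson correlations across features were 0.986 between the inhibitor arrays, 0.995 between the controls and 0.984 to 0.989 between groups. No detection calls were used here, so the 348 olfactory receptor features, which are tissue-restricted genes, served as a proxy of how bright an unexpressed gene can read. Whether any of them were expressed in these cells was not tested. Their 95th percentile was 4.73 and 4.56 with the inhibitor and 4.38 and 4.52 in the controls, and 61.9% of all features lay above it in all 4 arrays. Probes differ in brightness, so a value above that limit is not proof of expression: 6 of 11 leukocyte markers also lay above it in all 4 arrays, among them CD3E, a T cell receptor chain, and CD68, which other cell types also express.

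The 10 markers lay on both sides of this limit. PAX8, MECOM, WT1, SOX17 and CLDN3 lay above it in all 4 arrays, MUC16 in 2 arrays, both controls, and FOLR1, MSLN, EPCAM and WFDC2 in 0 of 4. At the 99th percentile of the olfactory receptors 3 stayed above in all 4 arrays, PAX8, MECOM and WT1. In all, 5 of the 10 were above the limit in all 4 arrays, against 61.9% of all features. By class these were 4 of 4 transcription factors, 1 of 5 surface and adhesion genes and 0 of 1 secreted gene. SOX17 cleared the limit by as little as 0.197 log2 units.

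**Figure D1:**
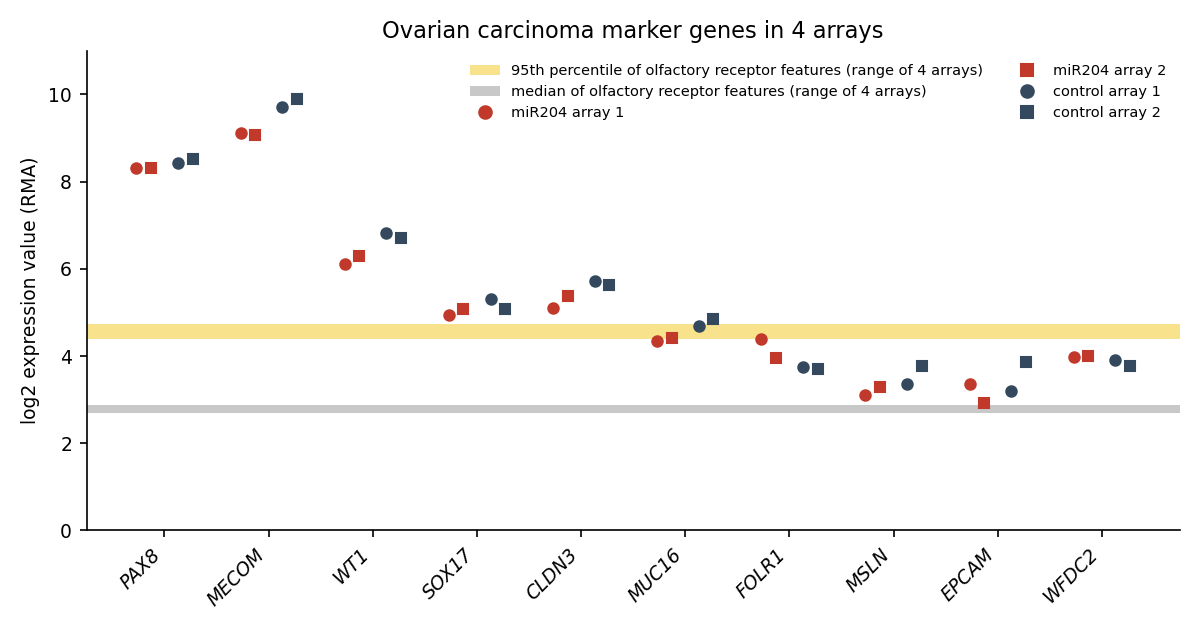
Log2 expression values (RMA, y axis) of the 10 marker genes in each inhibitor (red) and control (dark) array, with the range over the 4 arrays of the median (grey) and the 95th percentile (yellow) of 348 olfactory receptor features. PAX8, MECOM and WT1 sit clearly above the yellow band in all 4 arrays, and FOLR1, MSLN, EPCAM and WFDC2 lie below each array's own 95th percentile.

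Among the transcription factors, MECOM had values of 9.12 and 9.07 log2 units in the inhibitor arrays, against 9.71 and 9.89 in the controls. Both inhibitor arrays were lower than both controls. Means were 9.095 ± 0.0354 with the inhibitor and 9.80 ± 0.127 in the controls (SD, n = 2 each), a log2 difference of -0.71 (SE 0.147, 95% interval -1.06 to -0.35), or 1.63-fold lower. In limma this did not pass an adjusted p of 0.05 over all 21448 features (adjusted p = 0.148). It passed when limma's prior followed intensity, called the trend setting here (adjusted p = 0.0024), which called 6.09% of all features lower. It also passed among features at or above the median level (adjusted p = 0.0243, 8.07% called lower) and with another quantile normalization plus the trend (adjusted p = 0.0159, 1.19% called lower), where the log2 difference was -0.49. Over the settings that kept all 4 arrays the adjusted p ran from 0.0024 to 0.349.

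WT1, a zinc finger factor of kidney, gonad and mesothelium, had 6.11 and 6.30 in the inhibitor arrays and 6.81 and 6.71 in the controls. The groups did not overlap, and the inhibitor arrays were the lower ones. The log2 difference was -0.55 (SE 0.150, 95% interval -0.91 to -0.20), 1.47-fold lower, with an adjusted p of 0.179 in limma. It passed only among features at or above the median level (adjusted p = 0.0400) and not in the trend setting (0.0514), over a range of 0.0400 to 0.371 in the settings with 4 arrays. In bulk RNA, fewer cells expressing a gene and less RNA per cell cannot be told apart.

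PAX8, the paired-box factor most used to assign a Müllerian origin, had 8.32 and 8.31 in the inhibitor arrays and 8.43 and 8.51 in the controls. The inhibitor arrays were both lower, but by little. The log2 difference was -0.15 (SE 0.140, 95% interval -0.49 to 0.18, adjusted p = 0.590 in limma), and its sign turned after another quantile normalization (0.05) and after cyclic loess (0.05). No direction is therefore given for PAX8. SOX17, an HMG-box factor that acts with PAX8 in ovarian carcinoma cells, had 4.93 and 5.08 with the inhibitor and 5.30 and 5.08 in the controls. One control array equalled one inhibitor array, so the groups overlapped, and the difference of -0.18 (SE 0.156, 95% interval -0.56 to 0.19) did not pass (adjusted p = 0.564 in limma). It was -0.075 without the first control array and -0.295 without the second, and -0.11 without the first inhibitor array. SOX17 lay 0.20 to 0.92 log2 units above the 95th percentile of the olfactory receptors and below their 99th in all 4 arrays.

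Of the surface genes, CLDN3, a tight junction protein, had values of 5.11 and 5.38 with the inhibitor and 5.73 and 5.63 in the controls. Both inhibitor arrays were below both controls. The log2 difference was -0.43 (SE 0.159, 95% interval -0.81 to -0.06, adjusted p = 0.236 in limma), and it did not pass in any setting. MUC16, the large mucin that carries CA125, had 4.35 and 4.42 with the inhibitor and 4.68 and 4.86 in the controls. Both inhibitor arrays were lower and both lay below their array's olfactory receptor limit, while both controls lay above theirs. The limits differed too, at 4.73 and 4.56 with the inhibitor and 4.38 and 4.52 in the controls. The inhibitor value of 4.42 was above the limit of the first control array. The control value of 4.68 was below the limit of the first inhibitor array. The difference of -0.38 (SE 0.148, 95% interval -0.74 to -0.03) did not pass (adjusted p = 0.25 in limma).

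MSLN, mesothelin, which binds MUC16, had 3.11 and 3.30 with the inhibitor and 3.35 and 3.78 in the controls. The inhibitor arrays were lower without overlap, narrowly between the nearest arrays (3.30 and 3.35), and the difference of -0.36 had an SE of 0.188 (adjusted p = 0.363 in limma). It was -0.575 without the first control array and -0.145 without the second. EPCAM, an epithelial adhesion protein, had 3.36 and 2.93 with the inhibitor and 3.19 and 3.87 in the controls. The groups overlapped, and the spread between its 2 controls (SD 0.481) was larger than the difference of -0.38 (SE 0.259, adjusted p = 0.467 in limma). It was -0.725 without the first control array and -0.045 without the second, and -0.60 and -0.17 without the first and the second inhibitor array. FOLR1, the folate receptor alpha, had 4.38 and 3.95 with the inhibitor and 3.74 and 3.70 in the controls. Both inhibitor arrays were the higher ones, with a difference of 0.45 (SE 0.181, 95% interval 0.01 to 0.88, adjusted p = 0.270 in limma). It was 0.23 without the first inhibitor array and 0.66 without the second.

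WFDC2, a secreted protein with whey acidic protein domains, had 3.98 and 4.01 with the inhibitor and 3.92 and 3.78 in the controls. The inhibitor arrays were higher without overlap, but the difference was small (0.14, SE 0.144, 95% interval -0.20 to 0.49, adjusted p = 0.625 in limma), and it was 0.215 without the first control array and 0.075 without the second. The values of MSLN, EPCAM, FOLR1 and WFDC2 all lay within the range of the olfactory receptors, so differences between their arrays are differences between dim readings.

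Across the 10 genes limma called 0 of them past an adjusted p of 0.05, where it called 0.0513% of all features, all of those higher with the inhibitor. At an unadjusted p under 0.05, 4 members were lower (MECOM, WT1, CLDN3 and MUC16), against 12.8% of all features, and 1 was higher (FOLR1), against 5.11%. Groups did not overlap for 8 members, of which 6 were lower, against 33.8% of all features, and 2 higher, against 16.5%. After another quantile normalization 5 members were lower and 2 higher without overlap, and the share of all features that were lower became 23.9%. The median log2 difference of the 10 was -0.37, against -0.07 over all features. Because the 10 were chosen with earlier results of these data known, these comparisons with all features are a description and not a test.

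**Figure D2:**
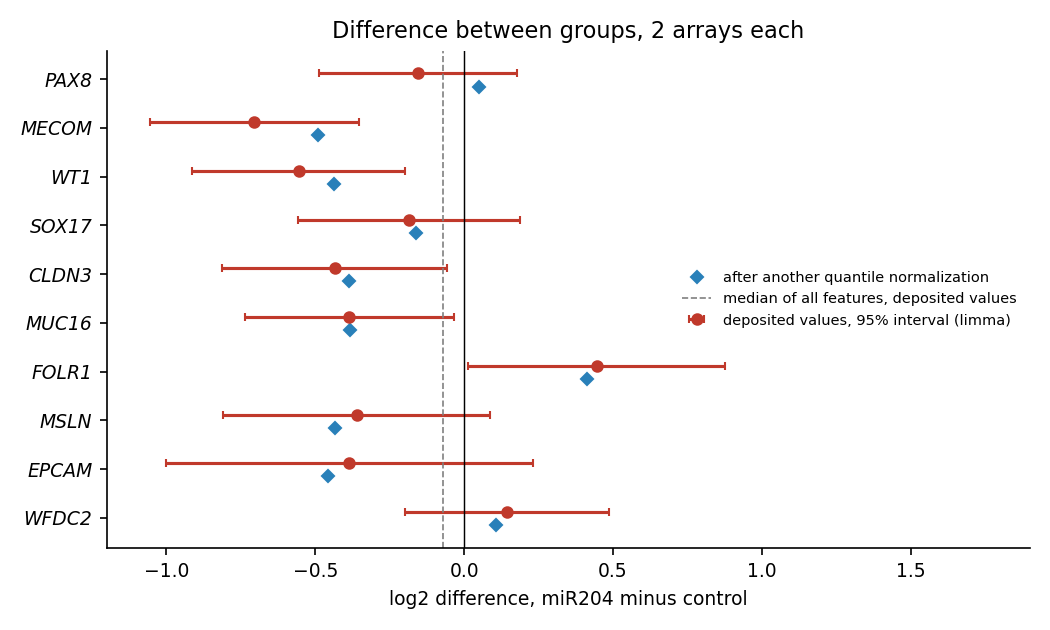
Log2 difference between the inhibitor and control arrays (x axis) for the 10 markers, with 95% intervals from limma on the deposited values (red) and the difference after another quantile normalization (blue). The intervals of MECOM, WT1, CLDN3 and MUC16 lie below 0 and that of FOLR1 above it, and the PAX8 difference changes sign between the normalizations.

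Differences on these arrays ran with brightness. Over bins of 25% of the features each, the median log2 difference was 0.07 in the dimmest bin, -0.01 and -0.12 in the next ones and -0.205 in the brightest, where 61.6% of features were lower without overlap. MECOM and PAX8 were in the brightest bin and WT1 in the one below it, so the MECOM difference of -0.71 stands beside a median of -0.205, the PAX8 difference of -0.15 beside the same value and the WT1 difference of -0.55 beside -0.12. SOX17, CLDN3 and MUC16 were in the bin with a median of -0.01. The other 4 members were in the dimmest bin, where EPCAM and MSLN lay below the median and FOLR1 and WFDC2 above it. The part of brightness in the members' differences was not tested.

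**Figure D3:**
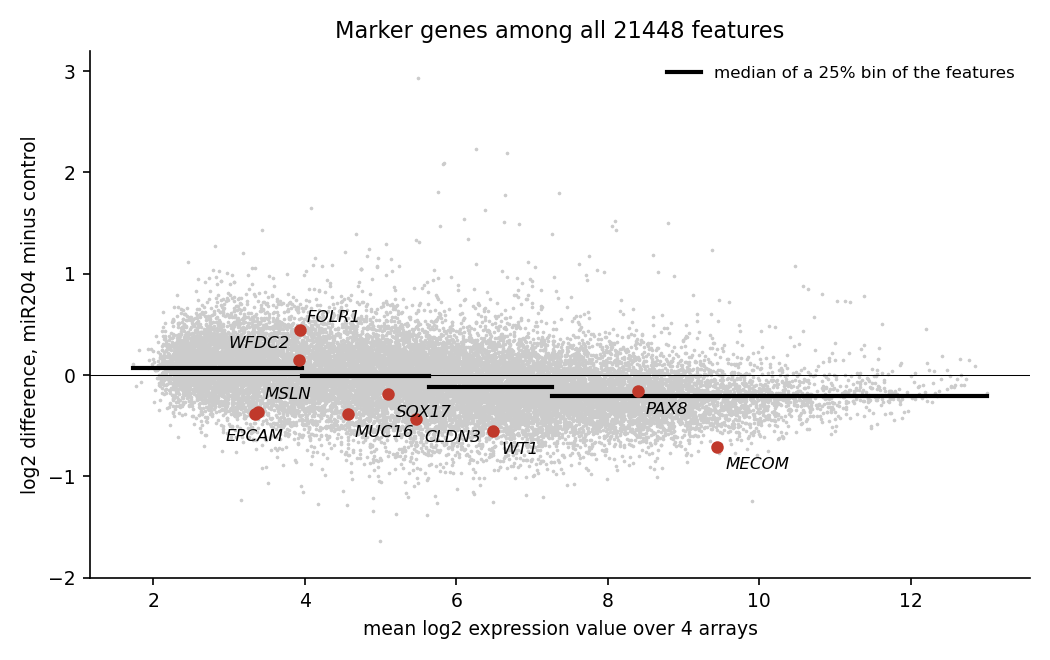
Log2 difference between the inhibitor and control arrays (y axis) against the mean log2 expression value over 4 arrays (x axis) for all features (grey) and the 10 markers (red), with black bars at the median of each 25% bin of the features. The bars step down from 0.07 to -0.205 as the level goes up, and MECOM and WT1 lie below the bar of their bin.

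The wider marker lists describe the cells in which the 10 genes were read. Of 29 measured epithelial genes, 16 lay above the olfactory receptor limit in all 4 arrays and 12 in none. Of the simple keratins measured, KRT8, KRT18 and KRT7 were bright and KRT19 was not. KRT8 read 11.29 and 11.28 with the inhibitor and 11.30 and 11.45 in the controls, KRT18 10.78 and 10.74 against 10.93 and 10.99, and KRT7 10.30 and 10.34 against 10.69 and 10.75. KRT19 read 4.96 and 5.62 with the inhibitor and 5.33 and 5.55 in the controls. The adherens junction protein CDH1 was within the olfactory receptor range, like EPCAM, with 3.50 and 2.81 in the inhibitor arrays and 2.72 and 2.96 in the controls. In limma 3 epithelial genes were higher at an unadjusted p under 0.05, against 5.11% of all features, and 2 lower, against 12.8%. RAB25, with the largest difference of the list, read 3.76 and 4.26 with the inhibitor and 3.39 and 2.68 in the controls. TJP3 (0.665, SE 0.241) and MAL2 (0.49, SE 0.183) were also higher, and all 3 were below the limit in all 4 arrays. The 2 lower genes were KRT7 (-0.40, SE 0.140) and AP1M2 (-0.45, SE 0.143).

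Of 22 mesenchymal genes, 16 lay above the limit in all 4 arrays. The intermediate filament VIM read 11.69 and 11.77 with the inhibitor and 11.97 and 12 in the controls. ZEB1, a repressor of epithelial genes, read 9.41 and 9.48 with the inhibitor and 9.76 and 9.80 in the controls, and its functional relative SNAI2 read 10.22 and 10.27 with the inhibitor and 9.87 and 9.74 in the controls. None of these named genes passed over all features. In the epithelial list (median difference 0.02) 7 genes were lower and 9 higher without overlap, against 33.8% and 16.5% of all features. In the mesenchymal list (median -0.04) 7 were lower and 3 higher. The lists differ in brightness: 9 epithelial genes lay in the dimmest bin and 6 in the brightest, against 2 and 11 mesenchymal genes. In the dimmest bin 11.7% of features were lower and 24.5% higher without overlap, and in the brightest 61.6% and 8.63%.

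WT1 and MSLN are also genes of mesothelium, the lining of the body cavities, so other mesothelial markers were read beside them. Of 8 measured, 5 lay above the limit in all 4 arrays, and 4 were lower without overlap and 0 higher, against 33.8% and 16.5% of all features, with a median difference of -0.35. The linear values summed over these 8 were 976 and 1059 in the inhibitor arrays and 1500.1 and 1418 in the controls. Most of each sum came from PDPN, so the sums describe mainly that gene and not the list. PDPN, the mucin-like protein podoplanin, read 9.58 and 9.69 with the inhibitor and 10.27 and 10.12 in the controls. CALB2, the calcium-binding protein calretinin, read 5.51 and 4.87 with the inhibitor and 5.82 and 6.09 in the controls. BNC1, a zinc finger protein, differed by -0.59 (SE 0.176), and 0 of the 8 passed over all features in limma, with 4 lower at an unadjusted p under 0.05, against 12.8% of all features. What part these genes have in the WT1 difference was not tested.

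Defining markers of other cell types were read as well. The pan-leukocyte gene PTPRC read 2.87 and 3.03 with the inhibitor and 2.90 and 2.77 in the controls, and 6 of 11 leukocyte genes lay above the limit in all 4 arrays. Of 10 fibroblast genes, 3 lay above it in all 4 arrays, COL1A1, COL1A2 and ACTA2, and 5 in none, LUM, POSTN and FAP among them. The collagen gene COL1A2 read 7.60 and 7.99 with the inhibitor and 7.99 and 7.79 in the controls, and the smooth muscle actin ACTA2 8.04 and 7.79 with the inhibitor and 8.13 and 8.23 in the controls. Linear values of the 11 leukocyte genes summed to 607 and 665 with the inhibitor and 592 and 601 in the controls, and those of the fibroblast genes to 605 and 649 with the inhibitor and 709 and 699 in the controls. Of 10 endothelial genes, 5 lay above the limit in all 4 arrays, CDH5, TIE1, ERG, VWF and CLDN5, and 4 in none, KDR and PECAM1 among them. TIE1, a receptor tyrosine kinase, read 8.49 and 8.49 with the inhibitor and 8.50 and 8.88 in the controls. CDH5, VE-cadherin, had 7.01 and 7.03 in the inhibitor arrays against 8.13 and 8.06 in the controls (log2 difference -1.07, SE 0.140, adjusted p = 0.101 in limma). The endothelial genes summed to 800 and 808 with the inhibitor and 952 and 1054 in the controls. These sums follow a few bright genes. Most of each leukocyte sum came from CD68, of each fibroblast sum from ACTA2 and COL1A2, and of each endothelial sum from TIE1 and CDH5.

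**Figure D4:**
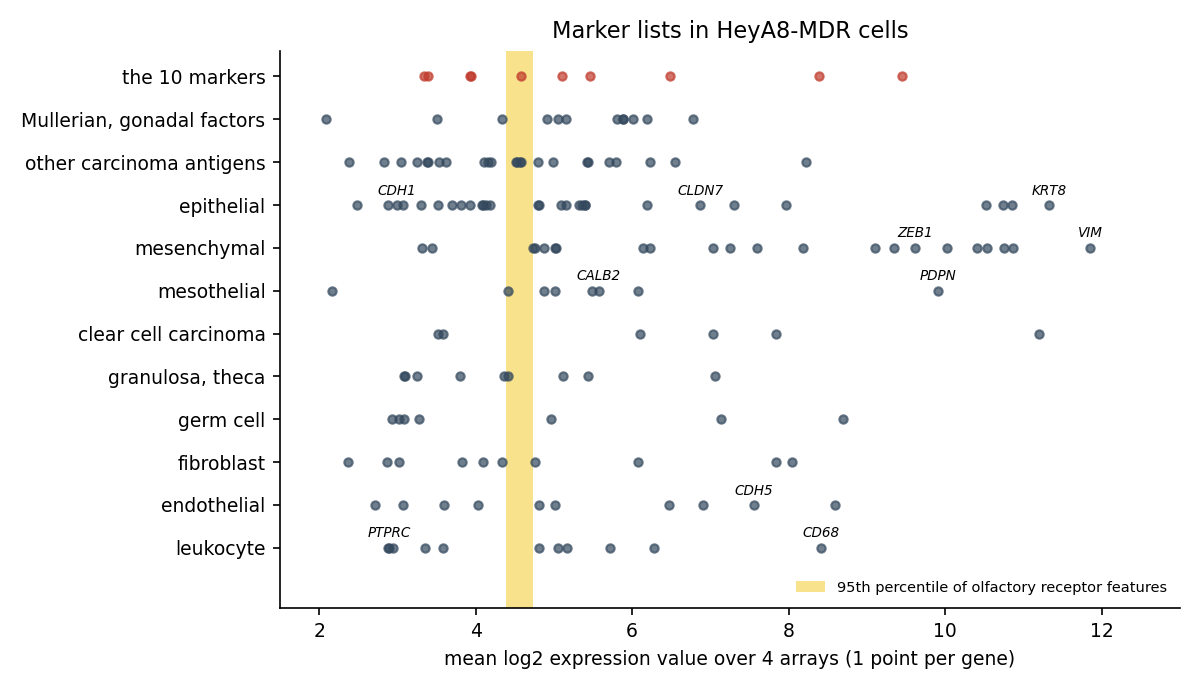
Mean log2 expression value over the 4 arrays (x axis, 1 point per gene) for the 10 markers (red) and lists of other marker genes (dark), with the range of the olfactory receptor 95th percentile in yellow. VIM, ZEB1 and KRT8 lie far to the right, CDH1 and PTPRC to the left of the band, and the 10 markers on both sides of it.

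Further genes of Müllerian and gonadal development were read beside the 4 transcription factors. Of 12 measured from a list of 20, 8 lay above the limit in all 4 arrays, and 4 were lower and 3 higher without overlap, against 33.8% and 16.5% of all features (median difference 0.03). LHX1, a LIM homeobox factor needed for Müllerian duct formation in mice, differed by -0.45 (SE 0.141), the homeobox factor MEIS2 by -0.48 (SE 0.192) and the zinc finger factor GATA6 by 0.38 (SE 0.168), and none passed (adjusted p = 0.205, 0.259 and 0.294 in limma). ESR1, the estrogen receptor alpha, read 5.57 and 4.96 with the inhibitor and 5.15 and 4.93 in the controls, and PGR, the progesterone receptor, read 2.42 and 1.94 against 2.03 and 1.98.

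The SOX, PAX and PRDM paralogs of the transcription factors gave no call, and the relatives of WT1 were not read as a family. The closest relatives of SOX17 are SOX7 and SOX18: SOX7 read 6.66 and 6.40 with the inhibitor and 6.85 and 6.83 in the controls, and SOX18 read 4.27 and 3.88 against 4.10 and 4.02, below the limit in all 4 arrays. PAX2, the PAX family member nearest to PAX8 in kidney and Müllerian development, read 4.73 and 4.14 with the inhibitor and 4.0 and 4.49 in the controls, below the limit in all 4 arrays. PRDM16, the paralog of MECOM, read 5.26 and 4.84 with the inhibitor and 4.82 and 4.92 in the controls, and its groups overlapped. Over the families, 4 of 17 SOX genes, 2 of 7 PAX genes and 3 of 14 PRDM genes were lower without overlap, against 33.8% of all features. Higher without overlap were 4 SOX, 1 PAX and 0 PRDM genes, against 16.5% of all features. At an unadjusted p under 0.05 in limma 2 SOX genes were higher, against 5.11% of all features, and 0 lower, against 12.8%. The 2 were SOX11 (0.505, SE 0.189), which was below the limit in all 4 arrays, and SOX12 (0.49, SE 0.186).

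MECOM was also set beside genes of its chromosome 3 neighbourhood. Of 18 measured, 12 lay above the limit in all 4 arrays, 14 had lower and 4 higher means (median difference -0.14), and 9 were lower and 2 higher without overlap, against 33.8% and 16.5% of all features. Of these 9, 6 lay in the brightest bin, where 61.6% of features were lower without overlap. GPR160, an orphan receptor gene, read 6.78 and 6.70 with the inhibitor and 7.32 and 7.43 in the controls, a difference of -0.64 (SE 0.143, adjusted p = 0.157 in limma). The Golgi protein gene GOLIM4 read 8.49 and 8.52 with the inhibitor and 8.95 and 8.98 in the controls (-0.46, SE 0.139), and ACTRT3 differed by -0.71 (SE 0.207). CLDN11, another claudin in that region, was among the bright genes, with 11.30 and 11.28 in the inhibitor arrays and 11.36 and 11.51 in the controls. None of the 18 passed over all features in limma, and 6 were lower at an unadjusted p under 0.05, against 12.8% of all features.

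Other antigens of ovarian carcinoma were mostly dim. Of 24 measured from a list of 26, 9 lay above the limit in all 4 arrays and 11 in none, and 7 were lower and 10 higher without overlap, against 33.8% and 16.5% of all features (median difference 0.05). Of the 24, 8 lay in the dimmest bin, where 11.7% of features were lower and 24.5% higher without overlap. MUC1, a transmembrane mucin, read 4.72 and 4.47 with the inhibitor and 4.71 and 4.42 in the controls, and CLDN4, a claudin used with CLDN3 as an epithelial marker, read 4.54 and 4.22 against 4.64 and 4.68. SLPI, a protease inhibitor with domains like those of WFDC2, read 4.55 and 4.25 with the inhibitor and 3.80 and 3.83 in the controls, a difference of 0.58 (SE 0.161, adjusted p = 0.181 in limma), but was below the limit in all 4 arrays. KLK10, a kallikrein protease, differed by -0.44 (SE 0.144, adjusted p = 0.212 in limma). The cancer-testis antigen PRAME differed by 0.42 (SE 0.139, adjusted p = 0.212 in limma) and was below the limit in all 4 arrays.

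In the claudin family, 10 of 23 relatives of CLDN3 lay above the limit in all 4 arrays, with CLDN1 (10.87 and 10.85 with the inhibitor, 10.59 and 10.64 in the controls) among the bright ones, and CLDN15 differed by -0.36 (SE 0.144). In the mucin family, 2 of 15 lay above it, and 7 were higher and 1 lower without overlap, against 16.5% and 33.8% of all features. Of the 15, 9 lay in the dimmest bin, where 24.5% of features were higher and 11.7% lower without overlap. The differences were 0.70 for MUC3A (SE 0.176, adjusted p = 0.169 in limma) and 0.43 for MUC12 (SE 0.168, adjusted p = 0.252 in limma). MUC3A was below the limit in all 4 arrays. Of the 16 whey acidic protein and neighbouring inhibitor genes around WFDC2, 3 lay above it.

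Folate is taken up by receptors such as FOLR1 and by the carrier SLC19A1. The related receptor FOLR2 read 4.14 and 4.29 with the inhibitor and 4.54 and 4.17 in the controls, while SLC19A1 read 8.52 and 8.41 with the inhibitor and 9.03 and 8.99 in the controls, a difference of -0.55 (SE 0.142, adjusted p = 0.171 in limma). MTHFD1, an enzyme that interconverts folate forms, read 9.12 and 9.46 with the inhibitor and 9.93 and 9.94 in the controls (-0.65, SE 0.166). Of 11 measured folate genes, 7 were lower and 1 higher without overlap, against 33.8% and 16.5% of all features (median difference -0.30). These 7 all lay in the brightest bin, where 61.6% of features were lower without overlap. The 1 higher gene, IZUMO1R, read 4.48 and 5.26 with the inhibitor and 4.08 and 4.10 in the controls (0.78, SE 0.253). It was above the olfactory receptor limit in 1 array. None of the 11 passed over all features in limma. At an unadjusted p under 0.05, 4 were lower, against 12.8% of all features, and 1 (IZUMO1R) higher, against 5.11%.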

How the data were processed

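Gene expression was measured in 4 arrays, 2 per group. The deposited values are log2 expression values made by the authors with RMA (background correction, quantile normalization and probe summary). The submitters' processing notes name Transcriptome Analysis Console 4.0 for this. Parameters and genome build are not given in the sources used here. Gene symbols came from the platform annotation: 17709 of 21448 features had 1 symbol and 3739 none. Where features shared a symbol the brightest stood for the gene.

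The inhibitor and control arrays were compared in limma 3.58.1, R 4.3.3 (lmFit, eBayes, no replicate block) over all features, with Benjamini-Hochberg adjustment over all of them, a threshold of 0.05 and 95% intervals. The procedure was run on simulated data with independent features, planted changes larger than the difference of any member and no shift with brightness. That run therefore does not show how well differences of the members' size are found on these arrays. The olfactory receptor limit is the 95th percentile of features whose symbol has the olfactory receptor form, taken per array. The number of arrays limits the precision. An exact permutation test of 2 against 2 arrays cannot reach the threshold, so none was run.

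The members and the 22 lists were chosen with earlier results of these data known. Named genes were the 10 members, their relatives, and some keratin and mesenchymal genes. A rule also picked up to 3 genes per list with the largest absolute moderated statistic, but not all of these are named. Others were named after their values were seen: CD68, KRT19, LUM, POSTN, FAP, COL1A1, COL1A2, PTPRC, KDR, TIE1, ERG, VWF, ESR1, PGR, CLDN1, CLDN11. TJP3, MAL2, STAR, INHA, FOXL2, SALL4 and LIN28A were also named in that way. Promoter and microRNA sequences came from RefSeq, GRCh38.p14.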

Additional observations from a re-analysis of the deposited data

How the results depend on the processing

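The count of members past the threshold was 0 on the deposited values and stayed 0 in most settings. It was 1 (MECOM) with an intensity trend, 1 (MECOM) with another quantile normalization plus trend and 2 (MECOM and WT1) among features at or above the median level, a filter that kept 3 of the 10 members. The count over all features was 11, against 1525 with the trend, 559 with quantile normalization plus trend, 0 with quantile normalization alone, 38 without features below the 25th percentile, 1011 among those at or above the median level, 4 with an ordinary test and 0 with the replicate number as a block. With each array left out in turn both counts were 0 to 0, where fits have 1 residual degree of freedom. The replicate block called 0 members, but it left 1 residual degree of freedom and called 0 of all features, so this says nothing about pairing. No pairing is stated, and replicate 1 deviations from the group means were uncorrelated between groups (r = 0.0058 over features). The replicate numbers were therefore not taken as pairs. The PAX8 difference turned to 0.0488 under quantile normalization, with and without the trend (0.0488), and to 0.0525 under cyclic loess. Of 139 member values under other settings, 132 kept direction and side of the threshold. This count says little about stability. A change of prior, the block, the ordinary test and the level filters leave the difference itself unchanged, so its direction could not turn there. Averaging the features of a symbol also changes no member's difference, since each has 1 feature. Direction is not size: with 1 array left out, the difference ran from -0.725 to -0.045 for EPCAM, -0.575 to -0.145 for MSLN, -0.295 to -0.075 for SOX17, 0.23 to 0.66 for FOLR1 and 0.075 to 0.215 for WFDC2, in each case moved by over 1.5 times by at least 1 array. The number of members above the olfactory receptor limit was 5, but 3 at the 99th percentile and 1 (MECOM) with the 95th percentile of KRTAP features, since some of those are bright. No signal over background was used, so dim readings are not calls of absence.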

Other observations

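Markers of other ovarian tumour and cell types were read as well. Of 6 genes linked to clear cell carcinoma, 4 lay above the olfactory receptor limit in all 4 arrays: TFPI2, a protease inhibitor, read 11.53 and 11.59 with the inhibitor and 10.75 and 10.92 in the controls (log2 difference 0.72, SE 0.147, adjusted p = 0.144 in limma). IGFBP1, a binding protein of insulin-like growth factors, read 5.71 and 5.76 with the inhibitor and 6.43 and 6.51 in the controls (-0.73, SE 0.141, adjusted p = 0.141), and GPX3, a secreted peroxidase, differed by -0.71 (SE 0.156). These differ in sign, and none passed. Of 9 granulosa and theca genes, 3 lay above the limit in all 4 arrays, STAR, INHA and FOXL2, and 4 in none, the aromatase gene CYP19A1 among them. STAR read 7.05 and 7.22 with the inhibitor and 6.99 and 6.98 in the controls. Of 7 germ cell genes 3 lay above the limit in all 4 arrays, TFAP2C, SALL4 and LIN28A, and 4 in none. TFAP2C, an AP-2 transcription factor that epithelial tumours also express, read 8.85 and 8.74 with the inhibitor and 8.60 and 8.59 in the controls. SALL4 read 7.32 and 7.02 with the inhibitor and 7.04 and 7.16 in the controls.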
